A study of Mus musculus with 8 samples.

Results

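The genes described here are 10 paracrine signals and receptors of mammary ductal branching: the Wnt ligands Wnt2, Wnt5a, Wnt5b, Wnt6, Wnt10a and Wnt11, the fibroblast growth factors Fgf7 and Fgf10, and the Fgf receptors Fgfr1 and Fgfr2. They were chosen by name, with earlier results of these data known, and all 10 had a row among the 51789 genes of the count table. The libraries came from whole mammary glands of immunocompetent female C57BL/6 mice, taken weeks after 1 injection into the gland. The control group, sEVCTRL (3 libraries), was given material prepared in the same way from medium that had held no cells. The sEVNORM group (3 libraries) was given small extracellular vesicles (sEVs) released in normoxia, and the sEVHYP group (2 libraries) sEVs released in hypoxia, both by AT3, a mouse mammary adenocarcinoma cell line that metastasizes. The vesicles thus came from a single cell line, and each library is a mixture of epithelium, fat, stroma, vessels and immune cells. The age of the mice is not given in the labels.

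Wnt ligands are secreted, lipid-modified glycoproteins that bind Frizzled receptors. With the co-receptors Lrp5 and Lrp6 they stabilize β-catenin, and through Ror and Ryk receptors they act without it. Fgf7 and Fgf10 are made by mesenchymal cells and bind the epithelial splice form of Fgfr2, whereas Fgfr1 is the main Fgf receptor of many stromal cells. In the mammary gland both families carry signals between the fat pad stroma and the ducts, from the formation of the buds to the branching of the ductal tree.

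Total counts per library ranged from 18194996 to 24622569, and levels are in CPM, a gene's count relative to the total of its library after edgeR's TMM scaling. Of all genes, 17858 passed a filter on low counts and were tested, among them 9 of the 10 genes described here. Wnt6 was the exception, with 3 to 10 counts per library. Tests were two-sided quasi-likelihood F-tests of edgeR in 1 model of the 3 groups, and a gene was called at an unadjusted p under 0.05, the threshold of the study's methods. With p adjusted by Benjamini-Hochberg across the genes tested, no gene passed 0.05 in any of the 3 comparisons in this edgeR model. In other edgeR settings, 1 gene passed for sEVHYP against sEVNORM with no filter. For sEVHYP against sEVCTRL, 1 passed without sEVNORM 2. At the same adjusted threshold, DESeq2 on all 8 libraries called 16 genes for sEVHYP against sEVNORM, 4 for sEVHYP against sEVCTRL and 2 for sEVNORM against sEVCTRL. DESeq2 on only the groups compared called 83, 14 and 3 genes. Every adjusted p of the 9 genes tested was 1 in the edgeR model of the 3 groups.

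The composition of the glands differed between libraries within each group. Markers of luminal and basal epithelium, fibroblasts, white adipocytes and endothelium were present in every library, with none of those 40 markers at 0. The summed level of 6 lymph node B cell markers was 2040 CPM in the library sEVCTRL 1 and 2330 CPM in sEVNORM 2, against 684 to 1460 CPM in the other 6 libraries. The summed level of 9 skeletal muscle markers ran from 10.3 CPM in sEVNORM 2 to 12000 CPM in sEVHYP 2. Of these 9, 8 were higher in both sEVHYP libraries than in all sEVNORM libraries, although none passed the test. For 22.8% of all genes tested these groups did not overlap. Fewer cells of a type and less RNA per cell cannot be told apart in such libraries.

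**Figure D1:**
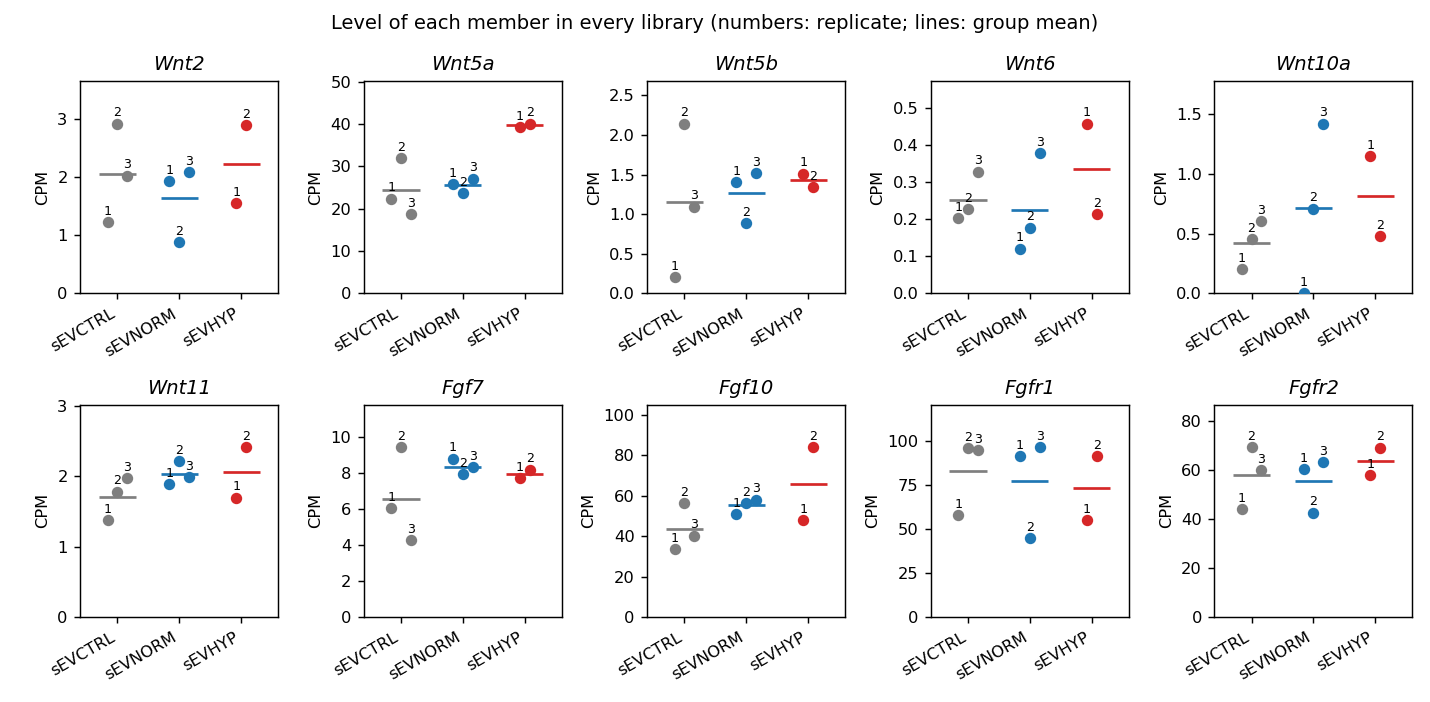
Level of each gene in CPM (vertical axes, linear from 0) in every library by group, with the replicate number above each point and a line at the group mean. For Wnt5a the sEVHYP libraries sat at 39.2 and 40.1 CPM, above all 6 other libraries, which reached at most 32.0 CPM, and for each of the other 9 genes the groups overlapped.

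Wnt5a was the gene of the 10 that passed the test. Wnt5a (ENSMUSG00000021994, chr14:28504750-28527448 on the plus strand of GRCm38) encodes a ligand that signals mainly without β-catenin and is known to restrain ductal growth. Its level was 22.4, 32.0 and 18.8 CPM in the sEVCTRL libraries, 25.8, 23.7 and 27.1 CPM with sEVNORM, and 39.2 and 40.1 CPM with sEVHYP. Both sEVHYP libraries were above every other library, whereas the sEVNORM libraries lay inside the range of the controls. The counts behind these levels were 344 to 856.

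With sEVHYP, Wnt5a was 1.55-fold higher than with sEVNORM (log2 fold change 0.64 ± 0.22 SE, 95% interval 0.14 to 1.14, unadjusted p = 0.0179). Against sEVCTRL it was 1.63-fold higher (log2 fold change 0.70 ± 0.22 SE, interval 0.20 to 1.20, unadjusted p = 0.0112). These comparisons share the sEVHYP libraries. For sEVNORM against sEVCTRL the log2 fold change was 0.06 ± 0.20 SE, with an interval from -0.39 to 0.52. One test of any difference among the 3 groups gave an unadjusted p of 0.0212 for Wnt5a, where 2.32% of all genes tested were called. The next lowest unadjusted p of that test among the 9 genes was 0.133, for Fgf10. An antisense gene, Gm2670, shares exon sequence with Wnt5a and held 0 to 4 counts per library.

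The call of Wnt5a against sEVCTRL was kept without each of the 8 libraries in turn, with log2 fold changes from 0.55 to 0.95 and unadjusted p-values from 0.000466 to 0.0494. Against sEVNORM its size held between 0.59 and 0.68, but the call did not. The unadjusted p was 0.0507 without sEVNORM 2, 0.0559 without sEVHYP 1 and 0.069 without sEVHYP 2. Where 1 sEVHYP library was left out, the remaining one was assumed to vary like the other groups.

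Among the 9 genes tested, 1 was called for sEVHYP against sEVNORM, where 3.95% of all genes tested were called and 2.25% were called as higher. For sEVHYP against sEVCTRL it was again 1 of 9, against 2.45% of all genes. None of the 9 was called for sEVNORM against sEVCTRL (unadjusted p from 0.19 to 0.839), against 1.62% of all genes. Genes whose groups did not overlap were more common than calls: 22.8% of all genes for sEVHYP against sEVNORM and 12.8% for sEVHYP against sEVCTRL, in both cases with Wnt5a alone among the 9, and 4.86% for sEVNORM against sEVCTRL, with 0 of the 9. The median log2 fold change of the 9 genes was 0.20 for sEVHYP against sEVNORM, 0.27 for sEVHYP against sEVCTRL and 0.14 for sEVNORM against sEVCTRL. Over all genes tested the medians were -0.02, -0.02 and -0.00.

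**Figure D2:**
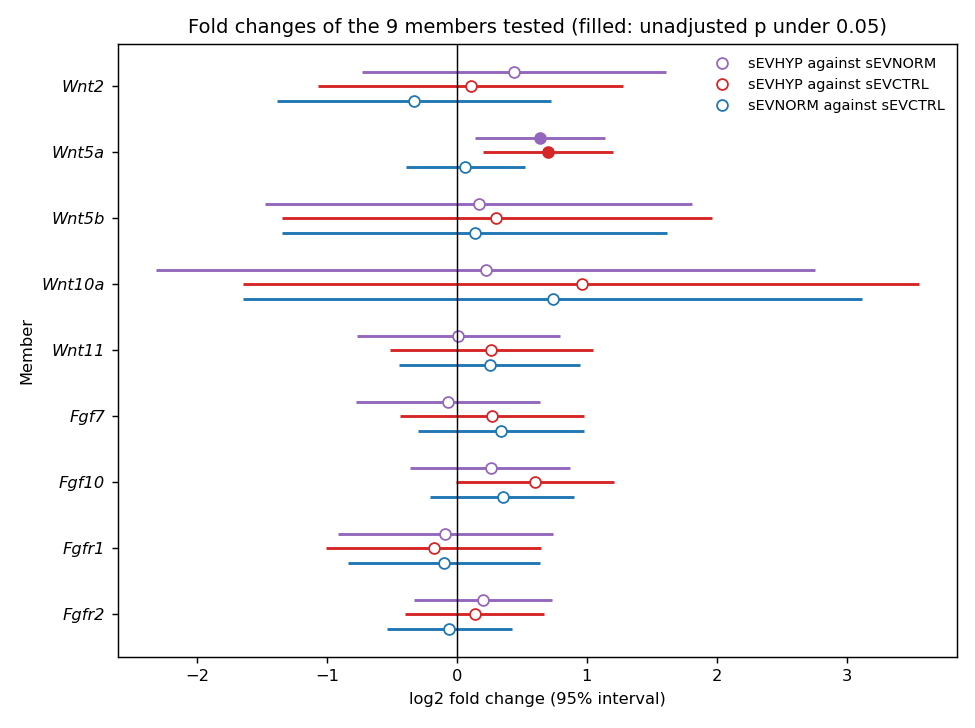
Log2 fold change (horizontal axis) of the 9 genes tested in the 3 comparisons, with 95% intervals as lines and points filled where the unadjusted p was under 0.05. The filled points are Wnt5a with sEVHYP, at 0.64 against sEVNORM and 0.70 against sEVCTRL, and the widest intervals are those of Wnt10a.

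The other Wnt ligands were at low levels, and their intervals were wide. Wnt5b, a close relative of Wnt5a (chr6:119432531-119544347, minus strand), had 0.203, 2.14 and 1.09 CPM in sEVCTRL, 1.41, 0.887 and 1.51 CPM with sEVNORM, and 1.51 and 1.34 CPM with sEVHYP. The control libraries alone spanned its whole range, 4 to 47 counts. Its log2 fold change was 0.30 ± 0.73 SE for sEVHYP against sEVCTRL, with an interval from -1.35 to 1.96. A change of the size measured for Wnt5a therefore lay inside the interval of Wnt5b and was not detectable at this depth and spread. The log2 ratio of Wnt5a to Wnt5b counts, which does not depend on scaling between libraries, was 4.86 ± 1.53 in sEVCTRL (SD, n = 3), 4.34 ± 0.32 with sEVNORM (SD, n = 3) and 4.78 ± 0.14 with sEVHYP (SD, n = 2). An exact permutation test over the 560 arrangements of the libraries gave p = 0.914 for this ratio (two-sided, adjusted p = 0.914 over 3 ratios, smallest possible p 0.00357).

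Wnt2 (chr6:17988940-18030585, minus strand) is a ligand of the β-catenin pathway made by stromal cells. It had 1.22, 2.92 and 2.02 CPM in sEVCTRL, 1.93, 0.887 and 2.08 CPM with sEVNORM, and 1.56 and 2.89 CPM with sEVHYP. Its lowest values were those of sEVNORM 2 and sEVCTRL 1, the libraries with the highest B cell marker levels, and the groups overlapped. The log2 fold change was 0.44 ± 0.52 SE for sEVHYP against sEVNORM and 0.11 ± 0.52 SE for sEVHYP against sEVCTRL.

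Wnt11 (chr7:98835112-98855195, plus strand), a ligand of cell movement and branching in several organs, was the steadiest of the 10. It ran from 1.37 CPM in sEVCTRL 1 to 2.41 CPM in sEVHYP 2, with a coefficient of variation of 16.6% over the 8 libraries. Its log2 fold change for sEVHYP against sEVNORM was 0.01 ± 0.35 SE, with an interval from -0.77 to 0.79. Changes inside this interval were not resolved.

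Wnt6 and Wnt10a, neighbouring genes on chromosome 1 (chr1:74771892-74785322 and chr1:74791516-74804179, both plus strand), encode epithelial ligands of the β-catenin pathway that take part in skin and mammary bud development. Wnt6 had 0.121 to 0.458 CPM over the 8 libraries and entered no test after filtering. Without the filter its log2 fold change was 0.42 ± 0.99 SE for sEVHYP against sEVCTRL (unadjusted p = 0.68). Wnt10a had 0.203, 0.456 and 0.602 CPM in sEVCTRL, 0, 0.709 and 1.42 CPM with sEVNORM, and 1.15 and 0.482 CPM with sEVHYP. The count of 0 in sEVNORM 1 allows up to 3 counts, or 0.121 CPM, a limit that covers counting error only. The sEVNORM libraries held both its lowest and its highest level, and its log2 fold change of 0.96 ± 1.15 SE for sEVHYP against sEVCTRL had an interval from -1.65 to 3.56.

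The library with the highest Wnt10a level, sEVNORM 3, also stood apart in skin markers. The summed level of 10 keratinocyte and hair follicle markers was 54.1 CPM there and 10.1 to 14.1 CPM in the other 7 libraries, and 1 of the 10 markers was at 0 there against 4 to 6 elsewhere. The library with the next highest Wnt10a level, sEVHYP 1, had a sum of 10.9 CPM. Over the 8 libraries, r between Wnt10a and the mean log2 level of these markers was 0.39 (rho 0.10). It was -0.95 without the 2 libraries farthest from the median of the markers, sEVNORM 3 and sEVCTRL 1. The libraries then left include sEVNORM 1, with a Wnt10a count of 0 and the highest marker mean among them (-1.61). That r therefore includes a value at the floor of Wnt10a. The part of skin in the Wnt10a level was not tested.

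Fgf10 was the most abundant of the 8 ligands among the 10 genes. Another ligand of the family, Fgf2, was above it per length, with a mean of 14.3 CPM per kb over the 8 libraries against 11.6 CPM per kb. Fgf10 (ENSMUSG00000021732, chr13:118669791-118792115, plus strand) encodes the mesenchymal growth factor that drives the outgrowth of mammary buds. It had 33.7, 56.2 and 40.2 CPM in sEVCTRL, 51.0, 56.4 and 58.1 CPM with sEVNORM, and 47.8 and 83.9 CPM with sEVHYP. The library sEVHYP 2 was the highest of the 8, whereas sEVHYP 1 was below every sEVNORM library. An antisense gene that shares exon sequence with Fgf10, Gm16263, held 5 to 15 counts against 664 to 1568 for Fgf10.

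Fgf10 did not pass the test for sEVHYP against sEVCTRL, with a log2 fold change of 0.60 ± 0.27 SE (1.52-fold, interval -0.01 to 1.21, unadjusted p = 0.0529). Without sEVHYP 2 the difference was 0.13 (unadjusted p = 0.671), and without sEVHYP 1 it was 0.95 (unadjusted p = 0.0077). Without sEVCTRL 2 it was 0.83 (unadjusted p = 0.0118). Against sEVNORM the log2 fold change was 0.26 ± 0.27 SE, and it was -0.21 without sEVHYP 2. For sEVNORM against sEVCTRL it was 0.35 ± 0.24 SE.

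Fgf7 (chr2:126034658-126091185, plus strand), also called keratinocyte growth factor, was steady in the treated glands and varied among the controls. It had 6.04, 9.44 and 4.27 CPM in sEVCTRL, 8.81, 7.93 and 8.33 CPM with sEVNORM, and 7.74 and 8.19 CPM with sEVHYP. The control library sEVCTRL 2 was above every treated library and the other 2 controls were below them all. The log2 fold change was 0.27 ± 0.31 SE for sEVHYP against sEVCTRL and 0.34 ± 0.28 SE for sEVNORM against sEVCTRL (unadjusted p = 0.409 and 0.257).

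Some calls for Fgf7 and Fgf10 against sEVCTRL appeared when the library sEVCTRL 2 was left out. Fgf10 with sEVHYP also passed in settings that kept this library. Without sEVCTRL 2, the log2 fold change of Fgf7 was 0.63 with sEVHYP (unadjusted p = 0.0378) and 0.70 with sEVNORM (unadjusted p = 0.0176). That of Fgf10 with sEVNORM was then 0.58 (unadjusted p = 0.0406). The same omission raised the share of all genes called from 2.45% to 8.32% for sEVHYP against sEVCTRL and from 1.62% to 5.75% for sEVNORM against sEVCTRL. Within libraries, the log2 ratio of Fgf10 to Fgf7 was 2.76 ± 0.41 in sEVCTRL (SD, n = 3), 2.72 ± 0.16 with sEVNORM (SD, n = 3) and 2.99 ± 0.52 with sEVHYP (SD, n = 2). The exact permutation test gave p = 0.704 for it (adjusted p = 0.914).

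**Figure D3:**
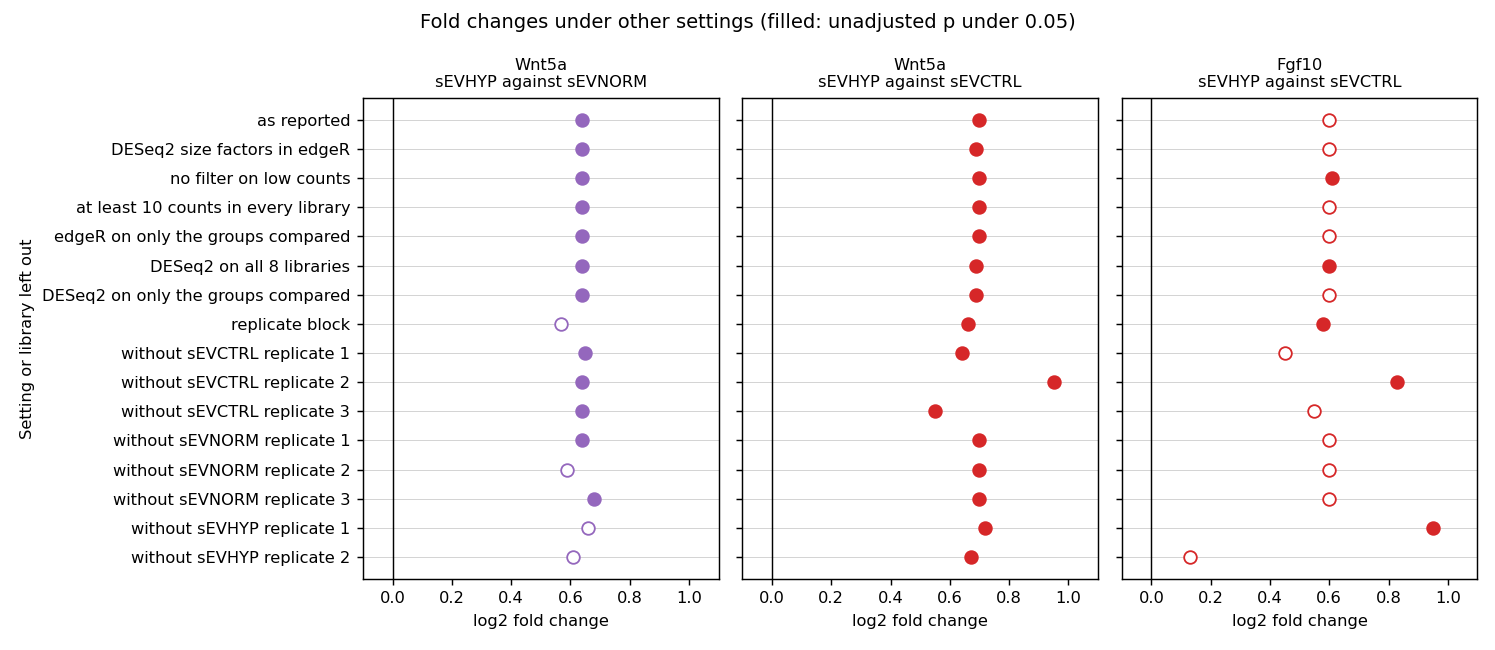
Log2 fold change (horizontal axes) of Wnt5a against sEVNORM, Wnt5a against sEVCTRL and Fgf10 against sEVCTRL, all for sEVHYP, under each alternative setting or without each library, with points filled where the unadjusted p was under 0.05. Wnt5a stayed between 0.55 and 0.95 in both comparisons, whereas Fgf10 moved from 0.13 without sEVHYP 2 to 0.95 without sEVHYP 1.

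The receptors were abundant and passed no test. Fgfr1 (chr8:25513654-25575718, plus strand) had 57.9, 96.0 and 95.1 CPM in sEVCTRL, 91.5, 44.8 and 96.6 CPM with sEVNORM, and 55.0 and 91.4 CPM with sEVHYP. In each group 1 library was at 57.9 CPM or below and the others were at 91.4 CPM or above, so the spread within groups was as wide as that over all libraries. Its log2 fold change was -0.18 ± 0.37 SE for sEVHYP against sEVCTRL (interval -1.01 to 0.65) and -0.09 ± 0.37 SE for sEVHYP against sEVNORM.

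Fgfr2 (chr7:130162451-133123350, minus strand) had 44.0, 69.1 and 59.8 CPM in sEVCTRL, 60.1, 42.6 and 62.9 CPM with sEVNORM, and 57.8 and 68.9 CPM with sEVHYP. Its lowest libraries were sEVNORM 2 and sEVCTRL 1, as for Wnt2. The log2 fold change was 0.20 ± 0.24 SE for sEVHYP against sEVNORM (interval -0.33 to 0.73) and 0.14 ± 0.24 SE for sEVHYP against sEVCTRL. The annotated span of Fgfr2 includes a transcript that shares exons with Ctbp2 on the same strand, a gene with 319 to 555 counts per library, so its reads from those exons, and its exon length, are uncertain. The counts do not separate the splice forms of Fgfr2. The log2 ratio of Fgfr1 to Fgfr2 was 0.51 ± 0.14 in sEVCTRL (SD, n = 3), 0.43 ± 0.31 with sEVNORM (SD, n = 3) and 0.17 ± 0.34 with sEVHYP (SD, n = 2), with p = 0.404 in the exact permutation test (adjusted p = 0.914).

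Divided by the exon length of each gene, the mean levels ran from 0.12 to 11.6 CPM per kb. The order of the mean levels was Fgf10 (11.6 ± 3.25 CPM per kb, SD over 8 libraries), Fgfr1 (7.95 ± 2.22), Fgfr2 (5.63 ± 0.975), Wnt5a (3.66 ± 0.997), Fgf7 (2.34 ± 0.512), Wnt2 (0.86 ± 0.321), Wnt5b (0.476 ± 0.212), Wnt11 (0.463 ± 0.0768), Wnt10a (0.254 ± 0.189) and Wnt6 (0.12 ± 0.0519). The exon length of Fgfr2 includes the exons it shares with Ctbp2, so its place in this order is uncertain. Within a library, Fgf10 was above Fgfr1 in 7 of 8 libraries and Fgfr1 above Fgfr2 in 7 of 8. Fgfr2 was above Wnt5a, Wnt5a above Fgf7, Fgf7 above Wnt2 and Wnt2 above Wnt5b in 8 of 8. The ranges over libraries did not overlap between Fgf7 (lowest 1.31 CPM per kb) and Wnt2 (highest 1.29), and they overlapped for every other pair of neighbours. Wnt5b and Wnt11 did not differ beyond their spread, each being higher in 4 of the 8 libraries. Wnt11 was above Wnt10a, and Wnt10a above Wnt6, in 6 of 8.

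**Figure D4:**
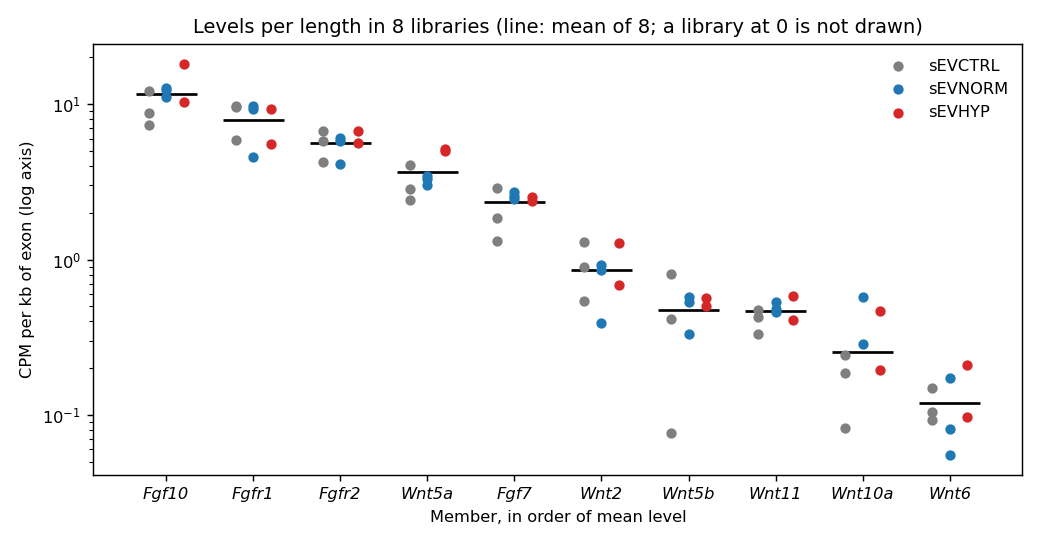
CPM per kb of exon (vertical axis, log scale) of the 10 genes in order of their mean over 8 libraries, with points colored by group and a line at the mean. Fgf10, Fgfr1, Fgfr2, Wnt5a and Fgf7 were at 1.31 CPM per kb or above in every library, and the count of 0 of Wnt10a in sEVNORM 1 is not drawn.

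Wnt2, Fgfr1 and Fgfr2 varied together over the 8 libraries. Pearson's r of log2 CPM was 0.96 for Wnt2 with Fgfr2 (Spearman's rho 0.98, and 0.98 without the 2 libraries farthest from the median of Wnt2), 0.85 for Fgfr1 with Fgfr2 (rho 0.76, and 0.92 in the same way) and 0.89 for Wnt2 with Fgfr1 (rho 0.79, and 0.66). After the group means were removed, r was 0.98, 0.94 and 0.96. Wnt11 and Fgf10 had an r of 0.82, which was 0.21 without the 2 libraries farthest from the median of Wnt11. Each point is a library, so these genes share its depth and its mixture of cells, and the values describe these libraries.

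The promoter windows of Wnt2 and Fgfr2 are shown because these genes had the most similar profiles. The windows are the 250 bases before the RefSeq start on GRCm38.p6, at chr6:18030446-18030695 and chr7:130266809-130267058. Both are read on the minus strand from 5′ to 3′. The gene spans given above come from another annotation and reach to 18030585 for Wnt2 and 133123350 for Fgfr2. In that annotation the Wnt2 window lies partly, and the Fgfr2 window wholly, inside the gene. Capitals mark matches on either strand to the GC box GGGCGG or to the core CTTTG that TCF/LEF factors of the Wnt pathway bind, and these letter patterns do not overlap in either window.
Wnt2: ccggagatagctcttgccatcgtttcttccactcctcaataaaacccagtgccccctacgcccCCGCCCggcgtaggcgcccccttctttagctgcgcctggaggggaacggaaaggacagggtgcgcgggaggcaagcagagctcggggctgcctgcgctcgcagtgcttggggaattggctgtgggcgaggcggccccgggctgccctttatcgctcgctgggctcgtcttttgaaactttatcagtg
Fgfr2: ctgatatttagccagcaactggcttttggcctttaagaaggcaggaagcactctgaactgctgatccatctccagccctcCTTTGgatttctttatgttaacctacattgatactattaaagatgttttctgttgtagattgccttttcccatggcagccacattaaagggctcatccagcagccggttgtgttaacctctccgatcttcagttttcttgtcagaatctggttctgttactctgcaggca
The Wnt2 window had a GC content of 63.6% and 1 match to the GC box, and the Fgfr2 window had a GC content of 44% and 1 match to the TCF/LEF core. Of 32851 windows of this length, 32.7% held the GC box and 48.6% the TCF/LEF core, so neither match is rare. The table of windows had entries for 7 of the 10 genes and none for Wnt5a, Wnt10a and Fgfr1.

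The levels of these genes also moved with markers of cell types. Over the 8 libraries, the mean log2 level of the B cell markers had an r of -0.95 with Wnt2, -0.93 with Fgfr2 and -0.82 with Fgfr1 (-0.92, -0.92 and -0.79 without the 2 libraries farthest from the median of the markers). Fgfr1 had an r of 0.91 with endothelial and 0.90 with white adipocyte markers (0.87 and 0.89 in the same way). Fgfr2 had an r of 0.93 with basal epithelial and 0.90 with fibroblast markers (0.70 and 0.91), and Wnt5b one of 0.92 with basal and 0.90 with luminal epithelial markers (0.64 and 0.73). For Wnt5a, r was 0.71 with brown adipocyte, 0.64 with basal epithelial and 0.55 with skeletal muscle markers. Without the 2 farthest libraries these were 0.65, 0.84 and 0.76, and rho was 0.74, 0.86 and 0.76. For Fgf10, r was 0.79 with luminal epithelial, 0.74 with brown adipocyte, 0.68 with basal epithelial and 0.52 with fibroblast markers, and 0.28, 0.55, 0.86 and 0.90 without the 2 farthest libraries.

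**Figure D5:**
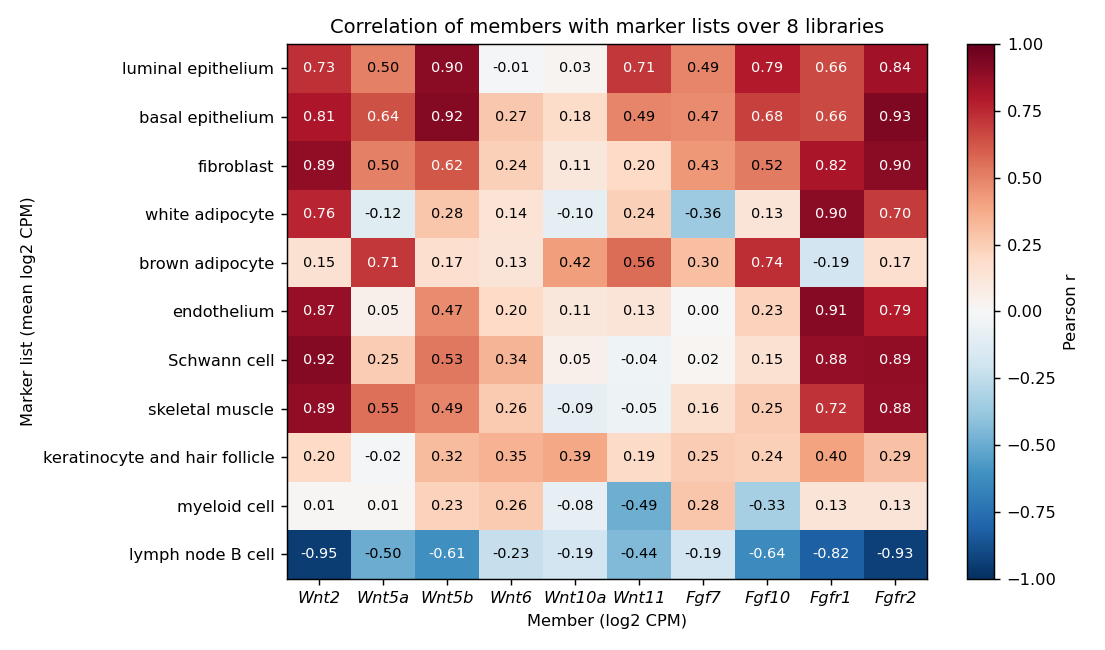
Pearson's r over 8 libraries between the log2 CPM of each gene (columns) and the mean log2 CPM of each marker list (rows), on a color scale from -1 to 1 with the value printed in each cell. Wnt2, Fgfr1 and Fgfr2 show the same pattern, with r from -0.95 to -0.82 for lymph node B cell markers and from 0.82 to 0.90 for fibroblast markers.

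Some of these markers differed between the groups in the same comparisons as Wnt5a. Of 8 basal epithelial markers, Cnn1 (a protein of smooth muscle and of myoepithelial cells) passed the test against sEVNORM. Against sEVCTRL, Cnn1 and Oxtr (the oxytocin receptor) passed. This is 1 and 2 of 8, where 3.95% and 2.45% of all genes were called. The list did not move one way. Against sEVNORM 5 of the 8 had a log2 fold change above 0 and 3 below (Krt14 -0.42, Trp63 -0.24 and Krt5 -0.10), with a median of 0.32, and against sEVCTRL 6 were above and 2 below (Trp63 -0.13 and Myh11 -0.09), with a median of 0.21. The summed level of the 8 was 519 and 523 CPM with sEVHYP, 329 to 433 CPM with sEVNORM and 320 to 492 CPM in sEVCTRL. Of 8 fibroblast markers, Col3a1 passed the test against sEVCTRL. In that comparison 5 of the 8 were above 0 and 3 below (Fbln1 -0.44, with both sEVHYP libraries under all controls, Dpt -0.38 and Pi16 -0.05), with a median of 0.10. The summed levels were 4730 and 5730 CPM with sEVHYP and 3630 to 5780 CPM in sEVCTRL. Of the 9 skeletal muscle markers, none passed the test, and their median log2 fold change was 2.57 against sEVNORM, with 8 of 9 not overlapping where this held for 22.8% of all genes, and 1.09 against sEVCTRL, with 0 of 9 not overlapping. Their summed level was 4290 and 12000 CPM with sEVHYP, 10.3 to 2750 CPM with sEVNORM and 636 to 7970 CPM in sEVCTRL. Of 5 brown adipocyte markers tested, Ucp1 and Dio2 passed against sEVCTRL, which is 2 of 5 where 2.45% of all genes were called. In that comparison 4 of the 5 were above 0 and 1 below (Ppara -0.17), with a median of 0.36, and Cidea was at 0.13. Against sEVNORM none passed, with 4 above 0 and 1 below (Ppara -0.30) and a median of 0.59. The summed level of the 7 listed was 29.3 and 57.9 CPM with sEVHYP, 19.3 to 30.6 CPM with sEVNORM and 21.1 to 32.8 CPM in sEVCTRL, and up to 2 of the 7 were at 0 in a library. The part of these cells in the level of Wnt5a was not tested.

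For each gene tested, the genes with the most similar profile were found among 15225 genes tested with a mean of at least 1 CPM. For Wnt5a they were Mmgt1 (r = 0.975 over 8 libraries) and Phactr1 (0.963), and for Fgf10 Spon1 (0.969) and Mettl9 (0.959). For Fgf7 they were Spred1 (0.985), an inhibitor of the Ras pathway that acts below Fgf receptors, and Cyp20a1 (0.985). Wnt2 was nearest to Lgi4 and Mtus1 (both 0.989), Fgfr1 to Pam (0.985) and Tmem159 (0.983), and Fgfr2 to Lix1 and Lmod2 (both 0.982). For the low genes they were Mansc1 (0.983) and Cdcp1 (0.978) for Wnt5b, Slc6a6 (0.971) and Gm6483 (0.953) for Wnt10a, and Scnn1g (0.938) and Gm6768 (0.928) for Wnt11. With 8 libraries and so many genes, values of this size describe the nearest profiles and no more.

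Of 92 other genes of the Wnt and Fgf pathways, 64 were tested. For sEVHYP against sEVNORM, 3 of the 64 were called, all higher, which is 4.69% of them and near the 3.95% of all genes. For sEVHYP against sEVCTRL and for sEVNORM against sEVCTRL it was 1 each, 1.56% of the 64 against 2.45% and 1.62% of all genes. The median log2 fold changes of the 64 were 0.05, 0.08 and -0.01. None passed an adjusted p of 0.05. Most of the 5 calls depended on single libraries. With each of the 8 libraries left out in turn, Nkd1 kept its call in 6 (lost without sEVNORM 2 and without sEVHYP 1), Klb in 4 (lost without sEVNORM 1, sEVNORM 2 and either sEVHYP library), Dusp6 in 4 (lost without sEVCTRL 1, sEVCTRL 2, sEVNORM 1 and sEVNORM 2), Wnt4 in 3 (without sEVCTRL 1, sEVCTRL 3 and sEVNORM 1) and Znrf3 in 2 (without sEVCTRL 1 and without sEVHYP 1). Without sEVCTRL 2, 7 of the pathway genes were called for sEVHYP against sEVCTRL.

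Of 13 other Wnt ligands, 5 were tested, and Wnt4, the ligand of side branching that acts after progesterone, was called for sEVHYP against sEVNORM. It had 7.33 and 9.69 CPM with sEVHYP, 6.36, 2.70 and 4.64 CPM with sEVNORM and 4.27, 5.75 and 8.15 CPM in sEVCTRL. The sEVHYP libraries were above all sEVNORM libraries and overlapped the controls. Its log2 fold change was 0.90 ± 0.39 SE against sEVNORM (1.86-fold, unadjusted p = 0.0481) and 0.49 ± 0.39 SE against sEVCTRL (unadjusted p = 0.243). The lowest of the 5 in both comparisons was Wnt10b, at -0.47 and -0.58.

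Of 16 Wnt receptors and co-receptors, 15 were tested and 0 were called in any comparison in edgeR at an unadjusted p under 0.05. Among them was Ror2, a receptor for Wnt5a with 8 to 37 counts per library. It was the highest of the list for sEVHYP against sEVCTRL, at 1.19 ± 0.60 SE (unadjusted p = 0.0778). Fzd3 was the highest for sEVHYP against sEVNORM, at 0.72 (unadjusted p = 0.0958). The lowest were Fzd4 at -0.24 and Fzd6 at -0.25 in these comparisons. Of the R-spondins and their receptors, 7 of 9 were tested, and Znrf3, a membrane ubiquitin ligase that removes Frizzled receptors, was called against sEVCTRL. It had 12.6 and 15.5 CPM with sEVHYP and 11.3, 10.2 and 9.58 CPM in sEVCTRL, a log2 fold change of 0.44 ± 0.19 SE (unadjusted p = 0.0454). Of 13 secreted Wnt inhibitors, 9 were tested and 0 were called. The lowest of them with sEVHYP was Wif1, at -0.97 against sEVNORM (unadjusted p = 0.0914) and -0.95 against sEVCTRL (unadjusted p = 0.0986), and the highest was Dkk2, at 0.60 and 0.32.

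Of 9 target and feedback genes of the β-catenin pathway, 8 were tested. Nkd1, a feedback inhibitor, had 9.48 and 7.92 CPM with sEVHYP, 6.11, 4.88 and 5.96 CPM with sEVNORM and 5.69, 6.29 and 7.06 CPM in sEVCTRL. Both sEVHYP libraries were above every other library, and the log2 fold change was 0.62 ± 0.23 SE against sEVNORM (unadjusted p = 0.0248) and 0.46 ± 0.23 SE against sEVCTRL (unadjusted p = 0.0812). The lowest of the list were Tcf7 at -0.31 against sEVNORM and Nkd2 at -0.39 against sEVCTRL. Axin2, the most used readout of this pathway and named here outside the rule for naming genes, had 9.62 and 7.23 CPM with sEVHYP, the latter the lowest of the 8 libraries, 8.08, 8.02 and 10.1 CPM with sEVNORM and 8.43, 9.12 and 10.9 CPM in sEVCTRL. Its groups overlapped, and its log2 fold change was -0.05 against sEVNORM (unadjusted p = 0.83) and -0.17 against sEVCTRL (unadjusted p = 0.489).

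On the Fgf side, 6 of 16 other ligands were tested and 0 were called, with Fgf2 the highest at 0.35 and Fgf9 the lowest at -0.48 for sEVHYP against sEVNORM. Of 5 other receptors and cofactors, 3 were tested, and Klb, the co-receptor of the endocrine Fgf21 that is made by adipocytes, was called for sEVHYP against sEVNORM. It had 61.3 and 73.5 CPM with sEVHYP, 43.2, 27.7 and 50.1 CPM with sEVNORM and 34.2, 38.0 and 67.0 CPM in sEVCTRL, a log2 fold change of 0.74 ± 0.32 SE against sEVNORM (unadjusted p = 0.0473). All 11 feedback and target genes of Fgf signaling were tested. Dusp6, a phosphatase of ERK, was called for sEVNORM against sEVCTRL, with 44.2, 46.5 and 35.8 CPM against 30.3, 31.6 and 34.6 CPM (log2 fold change 0.39 ± 0.15 SE, unadjusted p = 0.0296). With sEVHYP it had 36.6 and 32.5 CPM, and its log2 fold change against sEVCTRL was 0.10 ± 0.17 SE. The highest of the 11 for sEVHYP against sEVCTRL was Etv4, an Fgf-induced transcription factor, at 1.34 ± 0.92 SE (unadjusted p = 0.178). Etv4 was at a low level, with 2 to 37 counts per library. The lowest of the list was Spry2 at -0.17.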

How the data were processed

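Per the labels, polyA RNA of lysed mammary glands was made into libraries with the Lexogen Sense mRNA-Seq kit V2 (300 ng of RNA, 13 PCR cycles). The authors aligned reads with STAR to mm10 (GRCm38) and used RSEM 1.2.12 with Ensembl release 89 to estimate read counts by gene. The deposited values are whole-number counts with no normalization. How estimates were made whole, and whether counting used strand, is not given in the sources used here. PCR copies were counted as reads, so counting limits cover counting error only. No batch is given in the labels.

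Symbols, positions and exon lengths came from GENCODE M21 (GRCm38) by Ensembl ID, for 51596 of 51789 genes. The tests were run in edgeR 4.0.16 under R 4.3.3 (TMM scaling, filterByExpr at 10 counts, quasi-likelihood F-test, 5 residual degrees of freedom, common biological coefficient of variation 0.297). Log2 CPM used a prior count of 2, and ratios added 0.5 counts. Alternatives were DESeq2 1.42.0, other filters and scaling, only the groups compared, a replicate block and each library left out. The procedure was tested on simulated data. No replicates of a group were alike enough to be 1 library (chi-square per degree of freedom 25.5 to 95.3). The study's text counts replicates as animals, but the labels tie no library to an animal, and p-values measure the spread between these samples. Promoter windows came from RefSeq (GRCm38.p6).

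The 10 genes, the pathway and marker lists and the tests were chosen with earlier results of these data known. Of the pathway lists, the text names genes with an unadjusted p under 0.05 and otherwise the highest and lowest fold change, the latter not for every comparison. Axin2 was added outside this rule.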

Additional observations from a re-analysis of the deposited data

How the results depend on the processing

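Over 27 comparisons of the 9 genes tested, 399 alternative values were computed, of which 357 kept their direction and their side of the threshold. Another 12 kept their direction and crossed the threshold, and 30 changed sign, 29 of these without 1 library. The deviations of same-numbered libraries from their group means had r from -0.42 to 0.37. A group of 2 libraries deviates from its mean in opposite directions. Each r with sEVHYP 2 was therefore the reverse of that with sEVHYP 1 (0.13 and -0.13 for sEVNORM 1). For this reason the r values with sEVHYP cannot decide whether the numbers pair samples. Between sEVCTRL and sEVNORM, same-numbered libraries had r of -0.29, -0.42 and -0.01, and the others -0.32 to 0.47. There, same-numbered libraries were not more alike than others. With the replicate block, 0 genes were called against sEVNORM (Wnt5a 0.57, unadjusted p = 0.0554), 2 for sEVHYP against sEVCTRL (Wnt5a and Fgf10, the latter at 0.58 with an unadjusted p of 0.0243) and 0 in the test of any difference, and 2 pathway genes were called for sEVHYP against sEVCTRL and 0 for sEVNORM against sEVCTRL. Fgfr1 was then at 0.03 for sEVHYP against sEVNORM. For sEVHYP against sEVCTRL, Fgf10 also passed with no filter (unadjusted p = 0.0239) and in DESeq2 on all 8 libraries (unadjusted p = 0.0471), which gave 2 genes called in each. In the same comparison 0 pathway genes were called in edgeR on only the groups compared, in DESeq2 on all 8 libraries and in DESeq2 on only the groups compared, and for sEVNORM against sEVCTRL 0 were called in DESeq2 on only the groups compared. The log2 ratio of Wnt5a to Wnt5b differed by -0.34 between both sEV groups together and sEVCTRL. The sign of this difference came from sEVCTRL 1, at 6.62 with 4 counts of Wnt5b. The other controls, at 3.88 and 4.07, were below all sEVNORM and sEVHYP libraries (4.14 to 4.88). The cause of these differences was not tested.

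Without 1 library each, the genes called were 0 to 1 for sEVHYP against sEVNORM, 1 to 3 for sEVHYP against sEVCTRL, 0 to 2 for sEVNORM against sEVCTRL and 0 to 3 for any difference. Pathway genes called were 0 to 3, 0 to 7 and 0 to 3 in the same order of comparisons. The 7 were without sEVCTRL 2. Log2 fold changes that changed sign ran, for sEVHYP against sEVNORM, from -0.21 to 0.61 for Fgf10, -0.51 to 0.24 for Fgfr1, -0.54 to 1.21 for Wnt10a, -0.27 to 0.25 for Wnt11, -0.08 to 0.82 for Wnt2 and -0.03 to 0.31 for Wnt5b. For sEVHYP against sEVCTRL they ran from -0.61 to 0.14 for Fgfr1, -0.03 to 0.29 for Fgfr2, -0.02 to 0.50 for Wnt11, -0.41 to 0.49 for Wnt2 and -0.19 to 1.14 for Wnt5b. For sEVNORM against sEVCTRL they ran from -0.32 to 0.18 for Fgfr1, -0.25 to 0.09 for Fgfr2, -0.26 to 1.33 for Wnt10a, -0.62 to 0.01 for Wnt2, -0.09 to 0.31 for Wnt5a and -0.38 to 0.97 for Wnt5b. The log2 ratio of Fgf10 to Fgf7 with sEVHYP minus the mean of the other libraries was 0.25 over all libraries and -0.12 to 0.61 without 1 library each. Counts of all genes called at an unadjusted p under 0.05 were 706 for sEVHYP against sEVNORM (1102 with no filter, 1195 in DESeq2 on only the groups compared, 415 without sEVHYP 2), 438 for sEVHYP against sEVCTRL (672 with no filter, 1472 without sEVCTRL 2) and 290 for sEVNORM against sEVCTRL (533 with no filter, 568 without sEVCTRL 1, 1018 without sEVCTRL 2).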
